A study of Bos taurus with 48 samples.

Results

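The genes described here are 45 genes of mitosis, the part of the cell cycle in which duplicated chromosomes are separated, followed in bovine longissimus muscle from 60 days of gestation to 30 months of age and through a diet trial. A gene was taken as present where the name of an array probe, or the symbol in parentheses in the probe's description, equalled a listed gene, with CDK1 also accepted under its older symbol CDC2. By this rule 38 of the 45 genes had a probe, with 41 of the 21475 probes of the array, and DLGAP5, CDCA2, NDC80, NUF2, MKI67, NCAPG and NCAPH had none. The brightest probe stood for a gene with more than 1. The test was restricted to probes detected well above background in 24 or more of the 96 array channels, which 30 of the 38 genes were and 8 were not. The study's own cell cycle gene list, which was drawn up on these same samples, holds 19 of the 38 genes and 17 of the 30 tested genes, so the direction of those genes is not independent evidence. That list also holds DLGAP5, CDCA2 and NDC80, so the array may carry probes for them that the rule did not match.

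RNA of the longissimus thoracis et lumborum, the long muscle of the back, was hybridised to 48 two-colour arrays, each with 1 sample in the dye Cy3 and another in Cy5. The developmental arrays set Piedmontese × Hereford cattle against Wagyu × Hereford cattle before birth (days 60, 135 and 195 of gestation) and at birth (day 280), with 3 arrays for each age, and at 3, 7, 12, 20, 25 and 30 months, with 4 arrays each. Before birth the muscle came from 6 fetuses of each cross, at birth from 3 calves of each cross, and after birth from 5 Piedmontese-cross and 4 Wagyu-cross animals that were sampled repeatedly. The Piedmontese-cross count takes 2 animal codes of 195 days, which differ only in their last letter, as 2 fetuses. Whether they are 1 animal is not known. At 60 days each cross was represented by 1 fetus, hybridised on all 3 arrays. The diet arrays set 4 animals labelled weight loss, called restricted below, against 4 animals labelled growth at times 0, 1 and 2, with 4 arrays each. At time 1 there were 3 restricted and 4 growth animals, and at time 2 there were 2 of each, every one on 2 arrays. The labels give no age for the diet animals, which the study's methods call adults, and no dates for the times. Those methods describe the trial as nutritional deprivation and re-alimentation (renewed feeding), and the times were not assigned to either phase here. Restricted therefore names the group of animals and not their feed at a given time. Whole biopsies were used, so fewer cells of a type and less RNA per cell cannot be told apart in any value below.

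Mitosis begins when CDK1, bound to a B-type cyclin, phosphorylates its many substrates, and it ends when the anaphase-promoting complex marks the cyclins for destruction. Most of the genes in between are transcribed late in the cell cycle, so their RNA is found mainly in cells that are about to divide. In muscle the dividing cells are myoblasts, fibroblasts, endothelial and other mononucleate cells, because the nuclei of a myofibre have left the cell cycle and growth after birth adds nuclei from satellite cells.

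Each probe is a single strand of 60 bases, and 4 are shown because the results turn on which sequence was measured: CDC20 and UBE2C fell steeply at birth, AURKB is a tested gene that did not fall, and the PRC1 probe is a dim second probe of a bright gene. Capitals mark the longest run of letters that the probe shares with a probe of another gene on the array.
CDC20: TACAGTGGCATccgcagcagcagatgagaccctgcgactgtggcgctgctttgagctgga
UBE2C: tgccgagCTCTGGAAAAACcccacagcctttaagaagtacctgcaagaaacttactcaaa
AURKB: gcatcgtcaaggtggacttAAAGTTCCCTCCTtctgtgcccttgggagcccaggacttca
PRC1: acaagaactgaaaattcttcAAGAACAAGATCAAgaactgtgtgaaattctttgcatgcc
The shared runs are 11 bases long in the CDC20 probe, 12 in the UBE2C probe, 13 in the AURKB probe and 14 in the second PRC1 probe. UBE2C, BIRC5 and PRC1 each had 2 probes. The second probes of UBE2C and PRC1 were well above background in 0 of 96 channels, so 1 probe decides what is said of each of those genes. The second BIRC5 probe was above background in 79 of 96 channels and moved less than the first: its mean level went from 7.89 at 60 days to 7.28 at birth on the log2 scale, against 9.28 and 6.94 for the brighter BIRC5 probe.

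All levels are log2 intensities after background correction and normalization. The 3409 probes that were above background in no channel had a median level of 6.68, so a level near that value is not distinguished from an empty probe, and differences of dim genes are understated. Between 48.5% and 74.2% of all probes were above background per channel. The labelled tissue fits its defining genes: all 5 myofibre genes with a probe of 6 listed (ACTA1, CKM, MYH1, MYH7 and TNNT3) were above background in 96 of 96 channels. Of the 4 myoblast and satellite cell genes, MYOD1 and MYOG were above background in 96 channels and MYF5 in 50. PAX7, which defines satellite cells, was above background in 2. The prenatal and birth arrays share 3 slides, the arrays from 3 to 20 months share 4 others, those at 25 and 30 months share 2, and each diet time lies on its own slide, so the step from birth to 3 months and the differences between diet times cannot be told apart from the slides. Comparisons used limma on 64 developmental and 19 diet samples with the animal as a random block, and p-values were adjusted by the Benjamini-Hochberg method over 14869 probes. With 1 fetus of each cross at 60 days, that age was taken to vary like the other groups. The errors and p-values of every comparison with 60 days rest on this assumption.

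Nearly all mitotic genes were detected in fetal muscle, and many were lost from detection at birth. From 195 days to birth 19 of the 38 genes went from detection to none, 17 were detected at both ages and 2 at neither. Before birth 32 of the 38 genes were above background in all 18 channels and SMC4 in none. At birth 6 genes were above background in all 6 channels (PLK1, KIF2C, TPX2, NUSAP1, AURKB and PRC1) and 21 were in none. Counted per channel, 33 to 37 of the 38 genes were above background before birth and 6 to 17 at birth. As a share of gene and channel pairs this was 91.7% at 60 days, 92.5% at 135 days, 90.4% at 195 days and 32% at birth, while the share of all probes above background went only from 66.3%, 69.4% and 68.8% to 63.4%. After birth the share was 67.8% at 3 months, 48.7% at 7 months, 36.8% at 12 months, 47.4% at 20 months, 42.1% at 25 months and 33.9% at 30 months. Over all arrays it was 48.7% in Cy3 and 59.3% in Cy5, a dye gap that the all-probe shares of 61.5% and 66.9% also had. With 3 arrays for each fetal age and birth, each cross carried 1 of the dyes on 2 arrays and the other dye on 1.

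**Figure D1:**
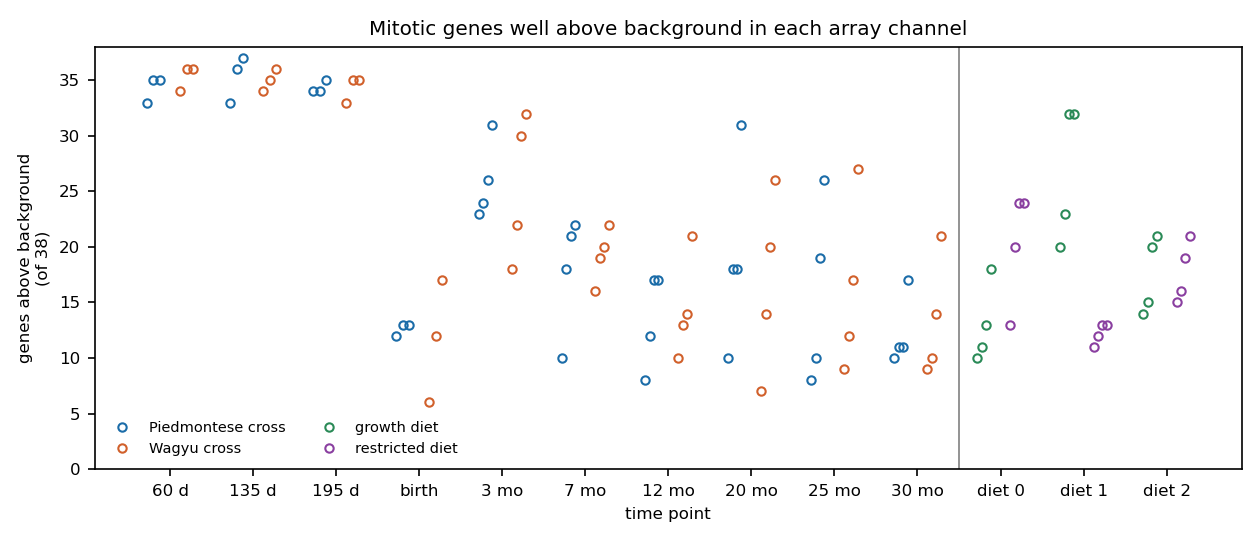
Mitotic genes above background in each array channel, out of 38, by time point and diet. Each point is 1 channel. The fetal channels lie between 33 and 37 genes and the birth channels between 6 and 17, and at diet time 1 the growth channels (20 to 32) lie above the restricted channels (11 to 13).

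Most of the mitotic genes were lower at each later age up to birth. From 60 to 135 days 24 of the 30 tested genes fell and 0 rose by limma (7.42% of all probes were called lower and 7.45% higher), with a median difference of -0.75 against 0.03 over all probes. That count was 6 with plain background subtraction (13.9% of all probes called in either direction) and 10 with channels centred on their medians (3.93%). From 135 to 195 days 22 fell and 0 rose (11.8% of all probes called lower and 10.9% higher), with a median of -0.59 against 0.00. Here 8 passed with background subtraction (22.5% of all probes), 1 with centring (2.81%) and 13 without replicate 1 (13.2%). From 195 days to birth 27 fell and TPX2 rose (30.8% of all probes called lower and 35.6% higher), with a median of -1.60 against 0.06. From 60 days to birth 28 fell and 1 rose (30.4% called lower and 37.6% higher), and the median difference was -3.02 against 0.13. Since the filter counts channels above background, a gene that passed mainly through its fetal channels had to differ at birth, and these counts do not describe the 8 genes that did not pass. The 5 samples at 195 days and the 6 at birth did not overlap, with birth lower, for 25 of the 30 tested genes (22.5% of all probes), and the 2 samples at 60 days lay above all birth samples for 28 (29.6% of all probes). At the earlier steps 29 genes did not overlap between 60 and 135 days (13% of all probes) and 16 between 135 and 195 days (8.04%), the later age being lower. The mean level over the 30 genes was 10.34 and 10.43 in the 2 samples at 60 days, 9.55 to 9.83 at 135 days, 8.99 to 9.45 at 195 days and 7.47 to 7.69 at birth, so that no 2 successive time points overlapped.

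**Figure D2:**
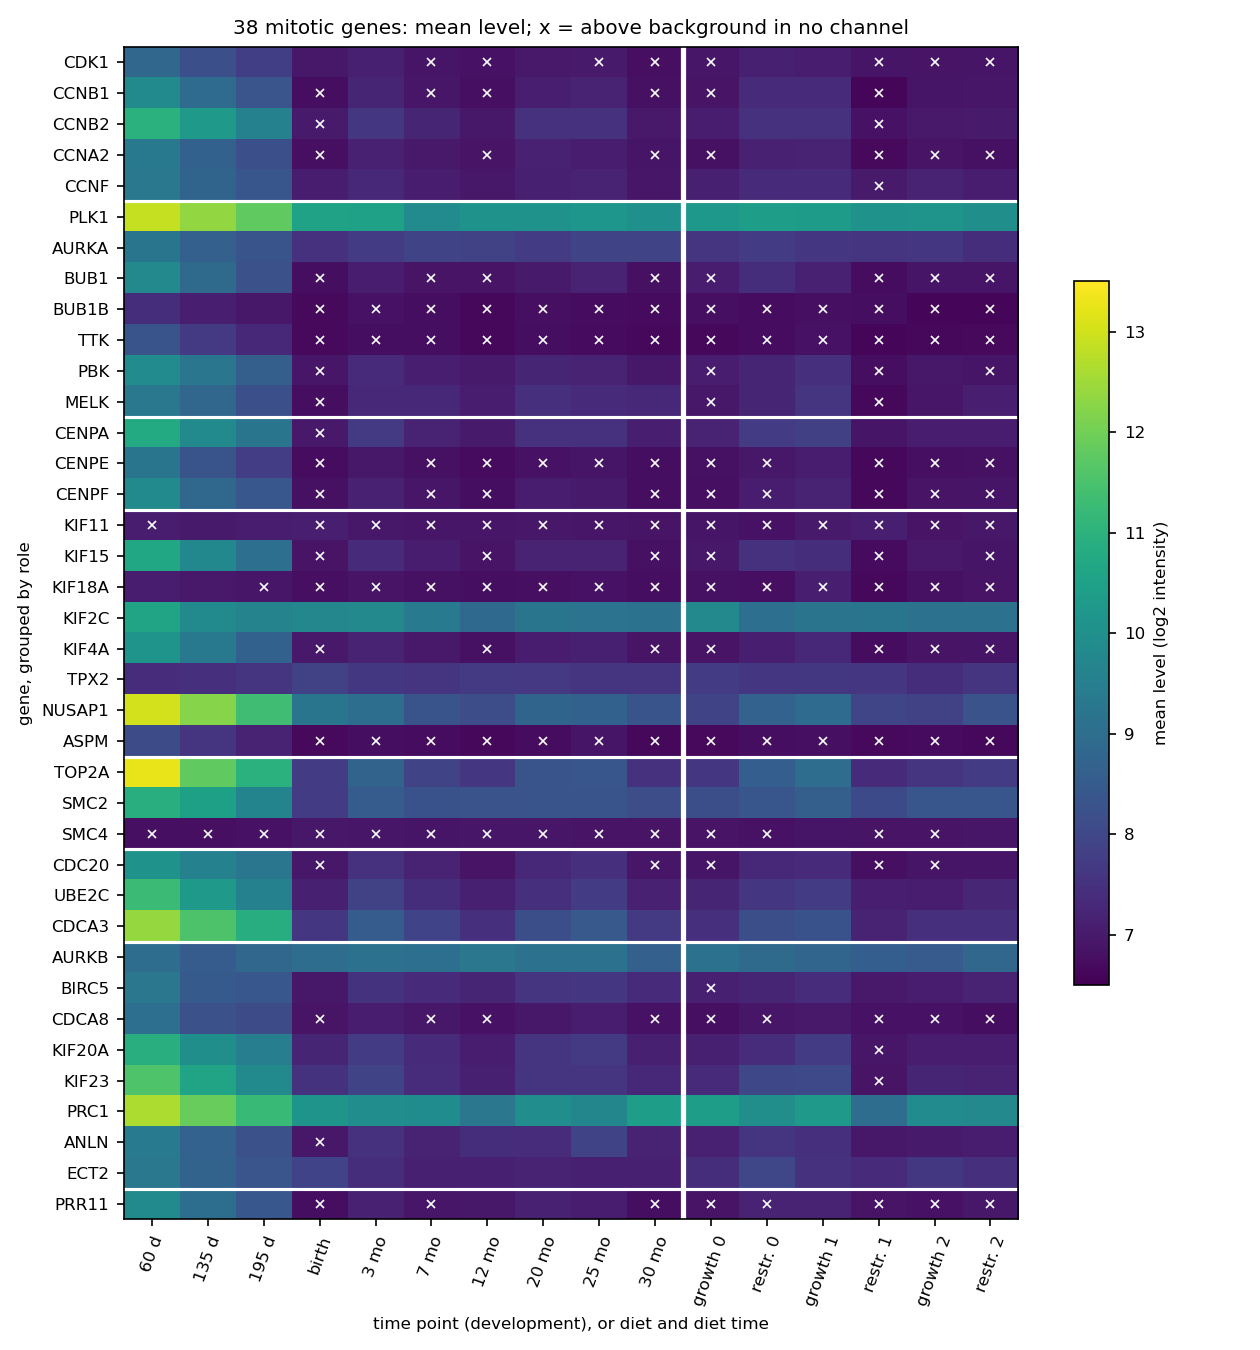
Mean log2 level of each of the 38 mitotic genes at every time point and diet group. A cross marks a group in which the gene was above background in no channel. In the birth column 21 genes have a cross, while PLK1, KIF2C, NUSAP1, AURKB and PRC1 are among the genes without a cross in any column.

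Among the genes of entry into mitosis, all 5 tested genes fell at every step from 60 days to birth. CDK1, the mitotic kinase itself, was at 8.79 and 8.84 in the 2 samples at 60 days, at 8.14 to 8.37 at 135 days, at 7.70 to 7.98 at 195 days and at 6.93 to 7.04 at birth, where 1 of 6 channels was above background. Its log2 difference from 60 days to birth was -1.86 ± 0.11 (SE, limma adjusted p = 9.16e-20). The ranges of the 4 time points did not overlap. CCNB2, a B-type cyclin that activates CDK1, was at 10.86 and 11.09 at 60 days, at 9.36 to 9.97 at 195 days and at 6.81 to 7.23 at birth, where it was above background in 0 of 6 channels. CCNB2 was therefore at least 15-fold higher at 60 days and at least 5.82-fold higher at 195 days than at birth (adjusted p = 2.32e-22 and 6.8e-20). The lower limits take, in each dim channel, the higher of its own value and the weakest signal well above background. That weakest signal was 5.36 in the lowest channel and 6.90 in the median channel, so a limit can lie close to the measured difference. Here and below, "at least" allows for detection only and not for sampling error. CCNB1, the other B-type cyclin, was at least 7.33-fold higher at 60 days, and CCNA2, the cyclin of S phase and early mitosis, at least 5.22-fold higher. CCNF, an F-box protein of the cyclin family, fell by 2.25 ± 0.12 on the log2 scale, with 1 of 6 birth channels above background.

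The mitotic and checkpoint kinases behaved unequally. PLK1, which drives centrosome maturation and mitotic entry, was above background in all 96 channels and went from 12.84 and 12.91 at 60 days through 11.62 to 12.00 at 195 days to 10.39 to 10.81 at birth, a difference of -2.35 ± 0.25 from 60 days to birth (adjusted p = 1.56e-11). PLK1 thus remained far above the level of empty probes where most other genes reached it. BUB1, a kinase of the spindle checkpoint, PBK and MELK were all above background in 0 of 6 channels at birth, and they were at least 7.14-fold, 7.46-fold and 5.09-fold higher at 60 days. AURKA, the kinase of the spindle poles, was at 9.11 and 9.31 at 60 days and at 7.15 to 8.19 at birth, a difference of -1.71 ± 0.16 (adjusted p = 8.93e-13). At birth 1 Wagyu-cross calf at 8.19 overlapped the 195-day samples at 8.12 to 8.63.

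Both tested genes of the centromere fell at each fetal step. CENPA, the histone H3 variant that marks the centromere, was at 10.76 and 10.80 at 60 days, at 9.72 to 9.99 at 135 days, at 9.10 to 9.63 at 195 days and at 6.81 to 7.14 at birth. The ranges did not overlap, no birth channel was above background, and CENPA was at least 13.8-fold higher at 60 days and at least 4.8-fold higher at 195 days than at birth (adjusted p = 6.71e-19 and 2.21e-15). CENPF, a protein of the outer kinetochore, was at least 7.33-fold higher at 60 days than at birth.

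TOP2A, the topoisomerase that untangles sister chromatids, had the largest fall of the 30 tested genes. Its level was 13.17 and 13.36 at 60 days, 11.32 to 12.38 at 135 days, 10.74 to 11.26 at 195 days and 7.34 to 7.98 at birth, where 5 of 6 channels were above background. The difference from 60 days to birth was -5.56 ± 0.34 on the log2 scale, a fold of 47.2 (adjusted p = 1.99e-19), of which -3.29 ± 0.25 fell between 195 days and birth. SMC2, a condensin subunit that compacts chromosomes, went from 10.89 and 10.92 to 7.51 to 7.95 over the same time (-3.18 ± 0.14, adjusted p = 3.62e-24). Neither gene had a birth sample within the range of any fetal sample.

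All 3 tested genes of mitotic exit fell at birth. CDCA3, a trigger of mitotic entry and a substrate of the anaphase-promoting complex, went from 12.37 and 12.44 at 60 days to 7.28 to 7.84 at birth with 5 of 6 channels above background, a difference of -4.81 ± 0.30 (28.0-fold, adjusted p = 3.94e-19). UBE2C, the ubiquitin-conjugating enzyme of the anaphase-promoting complex, went from 11.19 and 11.34 to 6.97 to 7.33 with 2 of 6 birth channels above background (-4.14 ± 0.26, 17.6-fold, adjusted p = 3.34e-19). CDC20, the activator of that complex at anaphase, was at 9.99 and 10.22 at 60 days and at 6.81 to 7.14 at birth, above background in 0 of 6 channels, so it was at least 8.58-fold higher at 60 days. The differences of CDC20 from 60 to 135 days (-0.54 ± 0.25, adjusted p = 0.157) and from 135 to 195 days (-0.28 ± 0.19, adjusted p = 0.313) did not pass the test, and it was at least 4.84-fold higher at 195 days than at birth.

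**Figure D3:**
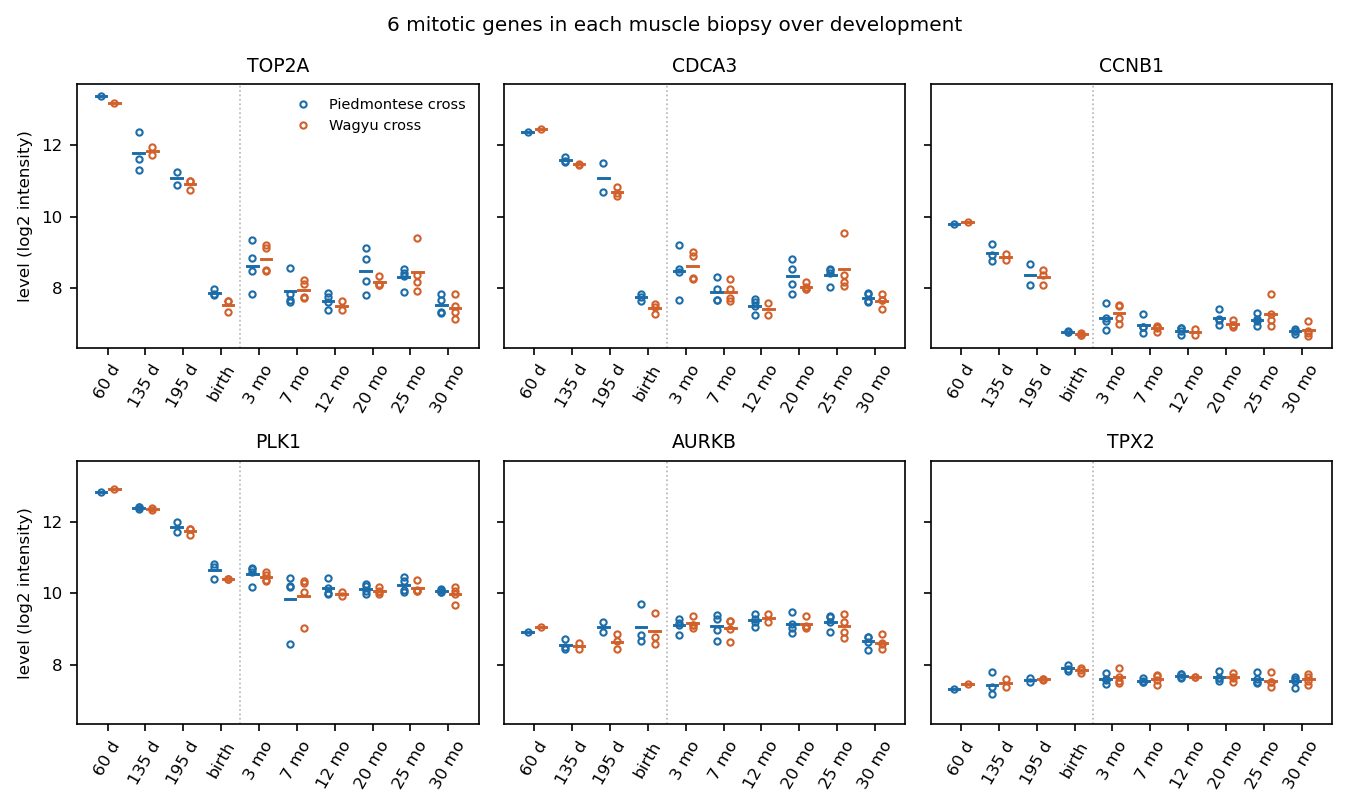
Log2 level of TOP2A, CDCA3, CCNB1, PLK1, AURKB and TPX2 in every muscle sample, by time point and cross. Points are samples and bars are the means of a cross. TOP2A and CDCA3 drop from at least 12.37 at 60 days to at most 7.98 at birth, PLK1 has its lowest sample at 8.57, and AURKB and TPX2 show no fall of that kind.

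The motors and spindle genes split into those that fell and those that did not. KIF15, a plus-end motor of the spindle, was at least 13.2-fold higher at 60 days than at birth and KIF4A, a chromosome-bound motor, at least 8.25-fold, and both were above background in 0 of 6 birth channels. NUSAP1, which bundles spindle microtubules, was above background in all 96 channels and went from 12.95 and 13.08 to 8.84 to 9.64, a difference of -3.79 ± 0.30 (adjusted p = 1.53e-15). KIF2C, which depolymerises microtubules at centromeres, was at 10.46 and 10.69 at 60 days, at 9.56 to 10.21 at 135 days, at 9.40 to 10.05 at 195 days and at 9.36 to 10.35 at birth. Its fall of 0.83 ± 0.25 from 60 days to birth passed (adjusted p = 0.00398), but from 195 days to birth the samples overlapped throughout (0.07 ± 0.19, adjusted p = 0.749). TPX2, which activates AURKA on the spindle, ran the other way: it was at 7.32 and 7.46 at 60 days, at 7.52 to 7.64 at 195 days and at 7.78 to 7.998 at birth, a rise of 0.48 ± 0.11 (adjusted p = 0.000117). All 6 birth samples of TPX2 lay above all 5 samples of 195 days, and its levels were low throughout, with 9 of 12 channels above background at 60 and 135 days.

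In the chromosomal passenger complex and cytokinesis, 6 of 7 tested genes fell from 60 days to birth and AURKB did not. AURKB, the kinase of the passenger complex, was at 8.91 and 9.07 at 60 days, at 8.44 to 8.71 at 135 days, at 8.43 to 9.19 at 195 days and at 8.59 to 9.70 at birth, with all 96 channels above background. Its difference from 60 days to birth was 0.01 ± 0.21 (adjusted p = 0.968), and it was -0.001 with plain background subtraction and -0.26 with channels centred on their medians. BIRC5 (survivin), which binds in the same complex, fell by 2.34 ± 0.14 on its brighter probe, from 9.28 in both samples at 60 days to 6.87 to 6.99 at birth. KIF20A and KIF23, motors of the central spindle, had differences of -3.71 ± 0.29 and -4.04 ± 0.28, with 3 and 5 of 6 birth channels above background. PRC1, which crosslinks the central spindle, stayed above background in all 96 channels, at 12.54 and 12.72 at 60 days and 9.80 to 10.59 at birth (-2.51 ± 0.18, adjusted p = 1.12e-16). ANLN, the scaffold of the contractile ring, was at least 5.2-fold higher at 60 days than at birth. ECT2, which activates RhoA at the division site, had the smallest fall among these 6 genes, from 9.31 and 9.33 to 7.57 to 8.31 (-1.42 ± 0.14, adjusted p = 4.17e-12). PRR11, a gene whose RNA also peaks late in the cycle, was at least 7.37-fold higher at 60 days.

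The 8 genes that were not tested included 4 that were clearly present in the fetus. CENPE, the kinetochore motor, was above background in all 18 fetal channels and in 0 of 6 at birth, with levels of 9.15 and 9.28 at 60 days and 6.59 to 6.82 at birth, which is at least a 4.83-fold difference. CDCA8 (borealin) was likewise at least 4.21-fold higher at 60 days than at birth, TTK, a checkpoint kinase, at least 2.57-fold and ASPM, a spindle pole protein, at least 2.25-fold. BUB1B, a checkpoint protein, was above background in 11 of 18 fetal channels and in 0 channels of the developmental arrays afterwards. KIF11, KIF18A and SMC4 were at or near the level of empty probes throughout: KIF11 was above background in 3 fetal channels, KIF18A in 4 and SMC4 in none, and nothing can be said of their change.

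Levels of other cell types moved over the same steps. From 195 days to birth 3 of 3 tested erythroid genes fell (4 of 6 listed had a probe, and SLC4A1 was above background in no channel), and the mean level of that list went from 10.88 to 11.78 to 7.80 to 8.41. Over the same step 3 of 4 fibroblast genes fell (list mean 13.75 to 14.50, then 12.08 to 12.63), 3 of 4 endothelial genes fell and VWF rose (11.71 to 12.04, then 10.42 to 10.81), and 3 of 3 tested myoblast genes fell, including MYOG with a difference of -3.12 ± 0.45 (list mean 11.21 to 11.36, then 9.09 to 10.24). The myofibre list, in contrast, stood at 13.18 and 13.95 at 60 days, at 16.31 to 16.76 at 195 days and at 16.87 to 17.24 at birth, with 4 of 5 genes higher at birth than at 60 days and 0 lower. From 195 days to birth 1 of 4 leukocyte genes rose and 1 fell, and 0 of 3 tested adipocyte genes passed (3 of 4 listed had a probe). The part of all these shifts in the values of the mitotic genes was not tested.

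Genes that work beside the listed ones were compared over the step from 195 days to birth, where 30.8% of all probes were called lower and 35.6% higher. Of the transcriptional regulators of the mitotic programme, 5 of 8 listed had a probe, 4 were tested and all 4 fell from 195 days to birth: FOXM1 (-1.53 ± 0.21), MYBL2 (-1.56 ± 0.12), E2F1 (-1.08 ± 0.09) and E2F2 (-1.99 ± 0.19). Of other spindle and cytokinesis genes 8 of 9 tested fell, among them CKAP2 (-2.39 ± 0.17), and CIT did not pass (0.26 ± 0.13). Of kinetochore and checkpoint genes outside the list 8 of 14 tested fell and 1 rose, with a median of -0.37. The anaphase-promoting complex is present through much of the cycle. Its subunits, listed together with its activator FZR1, were split, with 4 of 13 higher and 7 lower (median -0.21). The cohesin genes were split as well, with 1 of 6 higher and 2 lower. Of the G1 cyclins and kinases 4 of 8 fell (CCND1, CCND2, CCND3 and CDK4) and CCNE1 rose.

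From birth to 3 months 19 of the 30 tested genes rose and 2 fell (26% of all probes were called higher and 23.2% lower), with a median difference of 0.39 against 0.01. TOP2A went from 7.34 to 7.98 in the 6 calves to 7.84 to 9.36 in 8 samples at 3 months (1.02 ± 0.22 on the log2 scale, 2.02-fold, adjusted p = 0.000203), and the ranges overlapped slightly. CDCA3 went from 7.28 to 7.84 to 7.66 to 9.21 (0.94 ± 0.20, adjusted p = 0.000108) and SMC2 from 7.51 to 7.95 to 8.12 to 8.93 without overlap (0.81 ± 0.10, adjusted p = 1.75e-09). In 7 genes all samples at 3 months lay above all samples at birth (8.79% of all probes). Genes that were not above background at birth had small lower limits, the highest being at least 1.63-fold for CENPA. The 2 genes that fell were ECT2, from 7.57 to 8.31 to 7.19 to 7.58 (-0.49 ± 0.09, adjusted p = 3.62e-05), and TPX2 (-0.25 ± 0.07, adjusted p = 0.00335). All these values set 3 slides against 4 others, and MYOD1, MYOG, 3 of 4 fibroblast and 3 of 4 leukocyte genes rose with them. The part of these shifts in the result was not tested.

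From 3 to 20 months, which lie on the same slides, 6 of the 30 genes fell and 0 rose (15.4% and 11.8% of all probes), a share close to that of all probes, with a median of -0.15. The 6 were KIF2C (-0.58 ± 0.13, adjusted p = 0.000935), UBE2C (-0.41 ± 0.13), PLK1 (-0.40 ± 0.13), SMC2, ECT2 and CCNF. KIF2C went from 9.33 to 10.41 at 3 months to 8.54 to 9.92 at 20 months and UBE2C from 7.49 to 8.395 to 7.20 to 7.78, so that the samples overlapped in both. The count depended on single replicates: it was 3 without replicate 2 and 1 without replicate 4. The share of all probes called in either direction fell as well, from 27.2% to 20.6% and 18.4%. The mean level over the 30 genes was 7.53 to 8.23 at 3 months, 7.44 to 7.92 at 7 months, 7.41 to 7.53 at 12 months and 7.64 to 8.04 at 20 months, so the samples at 12 months were the lowest of these 4 ages and overlapped those at 7 months. PLK1 stood apart on 1 array of 7 months, replicate 1, where it was at 8.57 in the Piedmontese and 9.04 in the Wagyu cross, against 10.05 to 10.44 in the other 6 samples of that age.

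From 25 to 30 months 17 of the 30 genes fell and PRC1 rose (9.7% of all probes called lower and 10.4% higher), with a median of -0.26 against 0.00. TOP2A went from 7.88 to 9.40, with a median of 8.35, to 7.13 to 7.83, with a median of 7.42 (-0.89 ± 0.18, adjusted p = 0.000236). ANLN went from 7.29 to 8.81 to 7.05 to 7.34 (-0.77 ± 0.12, adjusted p = 7.73e-06) and CDCA3 from 8.05 to 9.54 to 7.41 to 7.87 (-0.76 ± 0.16, adjusted p = 0.000342). TOP2A and CDCA3 did not overlap between the ages, as was true of 5 genes in all (1.26% of all probes). AURKB went from 8.74 to 9.43 to 8.41 to 8.85 (-0.50 ± 0.11, adjusted p = 0.000632). PRC1 rose by 0.70 ± 0.10, from 9.35 to 10.23 to 10.17 to 10.59 (adjusted p = 4.27e-07). The Wagyu-cross sample of replicate 3 was the highest at 25 months in TOP2A and CDCA3 but not in ANLN or AURKB. Without replicate 3 the count of called genes was 11 instead of 18, and the share of all probes called in either direction was 16% instead of 20.1%. The erythroid list fell beside them in 3 of 3 tested genes (its mean level went from 8.71 to 10.03 to 6.97 to 8.05) and so did 3 of 4 fibroblast genes, and their part in the result was not tested.

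No tested mitotic gene passed between the crosses by limma. Before birth 0 of 30 passed (0.713% of all probes were called in either direction) and 0 had an unadjusted p under 0.05, with a median difference of 0.04, Piedmontese minus Wagyu cross. At birth 0 passed (1.57% of all probes), against 1 with the array as replicate block (9.64% of all probes), and 1 had an unadjusted p under 0.05. The gene with an unadjusted p under 0.05 was ECT2, at 8.31, 8.11 and 7.97 in the Piedmontese-cross calves and 7.57, 7.79 and 7.66 in the Wagyu-cross calves (0.46 ± 0.14, adjusted p = 0.0807). After birth 0 passed (0.0269% of all probes) and 0 had an unadjusted p under 0.05. A test of whether the cross difference before birth was unlike that after birth called 0 of 30 (0.377% of all probes), with 0 at an unadjusted p under 0.05. The 95% intervals of the 30 differences lay between -0.62 and 0.63 before birth, between -0.78 and 1.02 at birth and between -0.39 and 0.51 after birth. The shares above background were also close, at 91.2% and 91.8% before birth and 45.8% and 46.4% after birth for the Piedmontese and the Wagyu cross. Within arrays, the Piedmontese cross was the lower on all 3 arrays of 60 days in 11 of the 30 genes (20.9% of all probes) and the higher in 1 (23.5%). It was the higher on all 3 arrays in 11 genes at 135 days (14.7%), in 9 at 195 days (17.2%) and in 18 at birth (18.7%), and the lower in 0, 0 and 1 (13.4%, 19.9% and 17.7%). The 3 arrays of 60 days repeat 1 pair of fetuses, so they are not independent. At 135 days 1 Wagyu-cross fetus and at 195 days 1 Piedmontese-cross fetus was on 2 arrays, whereas the arrays at birth held different calves. Of the 18 genes at birth, CCNB1, CCNB2, CCNA2, PBK, MELK, CENPF, KIF15 and PRR11 were above background in no birth channel. Their signs therefore compare values near the level of empty probes. The median difference over the 30 genes was 0.07 to 0.09 on the birth arrays. At birth 5 genes did not overlap between the crosses with the Piedmontese cross higher (4.82% of all probes).

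In the diet trial the mitotic genes were lower in restricted than in growth animals at time 1. By limma 22 of the 30 tested genes were lower and 0 higher (9.05% of all probes were called lower and 9.64% higher), with a median difference of -0.58 on the log2 scale against 0.00 over all probes. In 20 genes the 3 restricted animals lay below all 4 growth animals (14.4% of all probes). On each of the 4 arrays the restricted animal was the lower in 25 to 30 of the 30 genes (49.5% to 52.3% of all probes), and 22 genes were lower on every array (22.2% of all probes). Since 2 of the 4 arrays carried the same restricted animal, both times in Cy3, they are not 4 independent pairs. The mean level over the 30 genes was 7.18, 7.37 and 7.40 in the restricted animals and 7.69, 7.81, 8.05 and 8.11 in the growth animals. The count was 9 without replicate 1, 10 without replicate 2 and 13 without replicate 3, with no gene called higher in any of these, while the share of all probes called in either direction went from 18.7% to 6.45%, 13.2% and 12.9%.

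TOP2A had the largest diet difference. At time 1 it was at 7.06, 7.48 and 7.58 in the restricted animals and at 8.58, 8.68, 9.36 and 9.45 in the growth animals (-1.67 ± 0.35, 3.19-fold, adjusted p = 0.0046), and all channels were above background. PRC1 was at 8.51, 8.85 and 9.66 against 9.92, 10.07, 10.503 and 10.67 (-1.30 ± 0.26, adjusted p = 0.00346), with all channels above background as well. Neither gene overlapped between the diets at time 1. PRC1 was already lower in the restricted animal on all 4 arrays of time 0, with log2 differences of -0.15 to -0.68. KIF23 was at 6.75, 6.92 and 6.94 in the restricted animals, above background in 0 of 4 channels, and at 7.46, 7.57, 8.33 and 8.82 in the growth animals, at least 2.22-fold higher in growth (adjusted p = 0.0278). CDCA3 was at 7.08, 7.19 and 7.27 against 7.99, 8.08, 8.47 and 8.51 (-1.10 ± 0.29, adjusted p = 0.0164). MELK, KIF20A, CDC20 and the cyclins CCNB1 and CCNB2 were likewise above background in none of the 4 restricted channels, and they were at least 1.72-fold, 1.79-fold, 1.41-fold, 1.43-fold and 1.53-fold higher in growth. The other genes called lower were CCNA2, CCNF, BUB1, PBK, CENPA, CENPF, KIF15, KIF4A, NUSAP1, SMC2, UBE2C, BIRC5 and ANLN.

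By role, 4 of 5 genes of mitotic entry, 3 of 5 kinases, both centromere genes, 3 of 5 spindle genes, both genes of chromosome structure, all 3 of mitotic exit and 5 of 7 of the passenger complex and cytokinesis were lower at time 1. The 8 tested genes that did not pass were CDK1 (-0.18 ± 0.10), PLK1 (-0.28 ± 0.17), AURKA (-0.04 ± 0.15), KIF2C (0.05 ± 0.27), TPX2 (-0.03 ± 0.13), AURKB (-0.17 ± 0.18), ECT2 (-0.21 ± 0.22) and PRR11 (-0.36 ± 0.14).

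**Figure D4:**
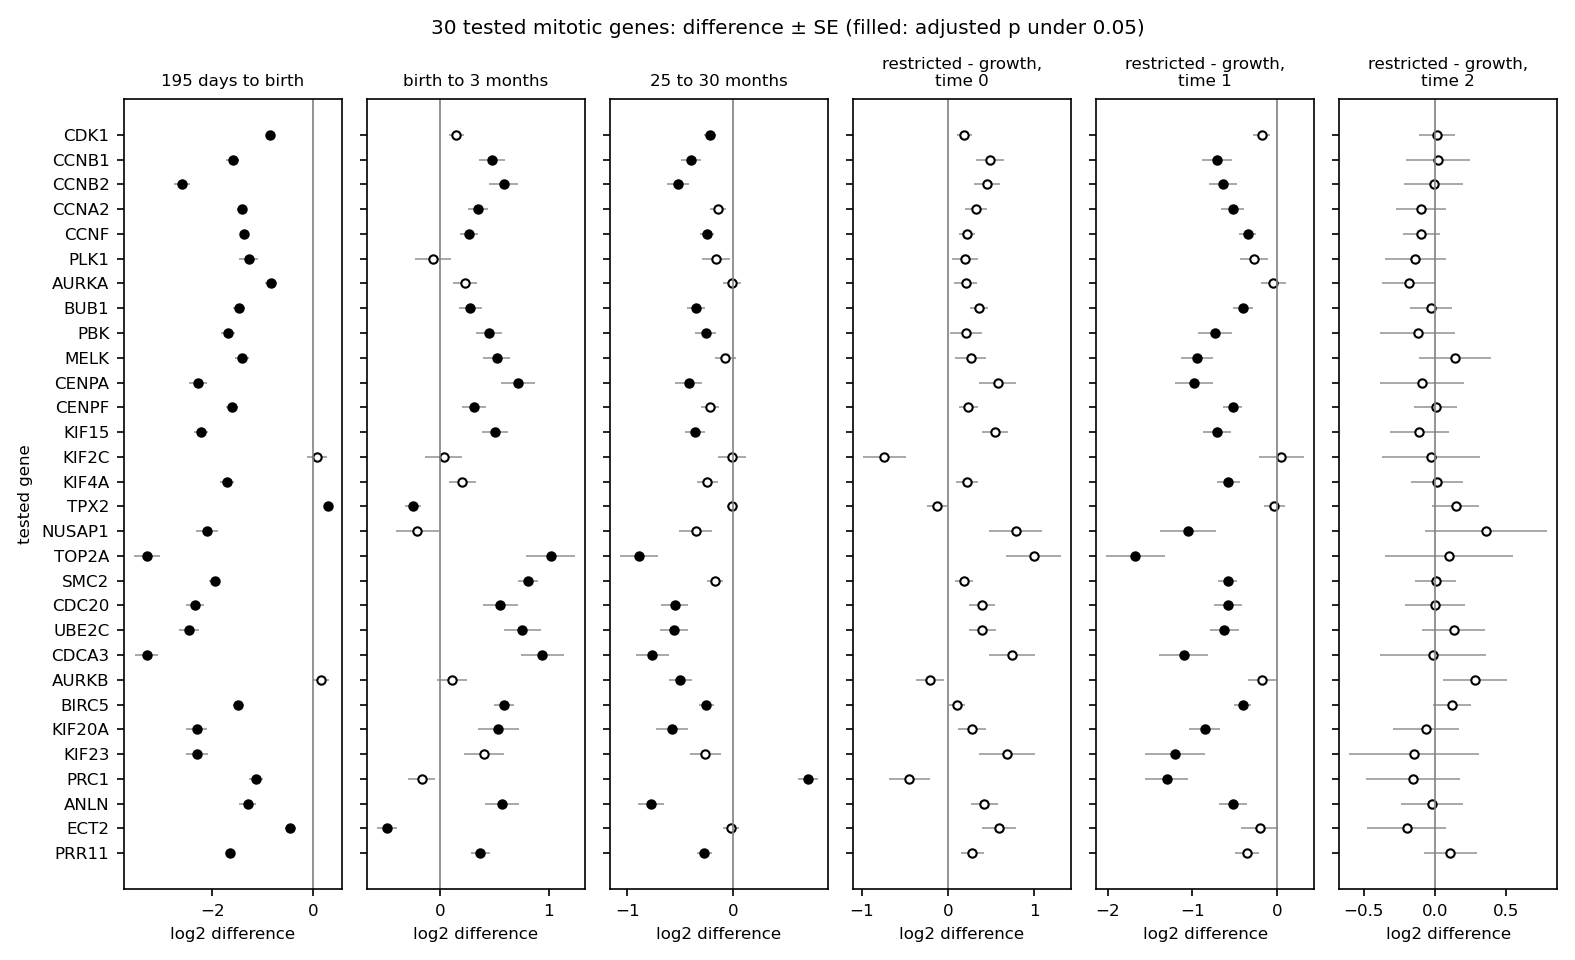
Log2 difference ± SE of each of the 30 tested mitotic genes in 6 comparisons, with genes that passed the test filled: 3 steps of age and restricted minus growth diet at times 0, 1 and 2. From 195 days to birth the differences reach -3.29, from birth to 3 months they reach 1.02, and among the diets they reach -1.67 at time 1 while no gene is filled at times 0 and 2. The horizontal scales differ between panels.

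At time 0 no gene passed with all samples and the animal as a block, and the median difference had the opposite sign. By limma 0 of 30 passed (3.84% of all probes called in either direction), 15 genes were higher and 1 lower at an unadjusted p under 0.05 (17.8% of all probes in either direction), and the median difference was 0.28. With the array as replicate block 2 passed (5.84% of all probes), and 6 passed with the deposited log ratios under that block (6.65%), an alternative chosen after seeing the data. TOP2A was at 7.80, 8.25, 8.82 and 9.52 in the restricted animals and at 7.36, 7.57, 7.62 and 7.87 in the growth animals at time 0 (0.99 ± 0.32, adjusted p = 0.102), and 1 restricted animal lay within the growth range. In 5 genes all restricted animals lay above all growth animals (4.79% of all probes). Within arrays the restricted animal was the higher on all 4 arrays in 8 genes (10.8% of all probes). It was the lower on all 4 in KIF2C, TPX2, AURKB and PRC1 (12% of all probes). The mean level over the 30 genes was 7.56, 7.75, 7.92 and 8.17 against 7.48, 7.54, 7.58 and 7.62. The change of the diet difference from time 0 to time 1 was called in 22 genes, all towards lower values in restricted animals (5.35% of all probes were called in that direction and 5.62% in the other), with a median of -0.85, and it was -2.66 ± 0.44 for TOP2A (adjusted p = 0.00397). These were the genes called lower at time 1, with PRR11 in place of PRC1. The count was 2 without replicate 1 and 6 without replicate 2, where the share of all probes called in either direction was 0.437% and 1.75%, against 11% with all replicates.

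The 3 restricted animals measured at both times were all lower at time 1 in mean level over the 30 genes, from 7.75 to 7.40, from 8.17 to 7.18 and from 7.56 to 7.37. All 4 growth animals were higher, from 7.58 to 8.05, from 7.48 to 7.81, from 7.62 to 7.69 and from 7.54 to 8.11. These changes within animals run across 2 slides. The share of gene and channel pairs above background went from 53.3% to 32.2% in restricted and from 34.2% to 70.4% in growth animals, while that of all probes went from 60.6% to 64.8% and from 61.7% to 67.6%.

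**Figure D5:**
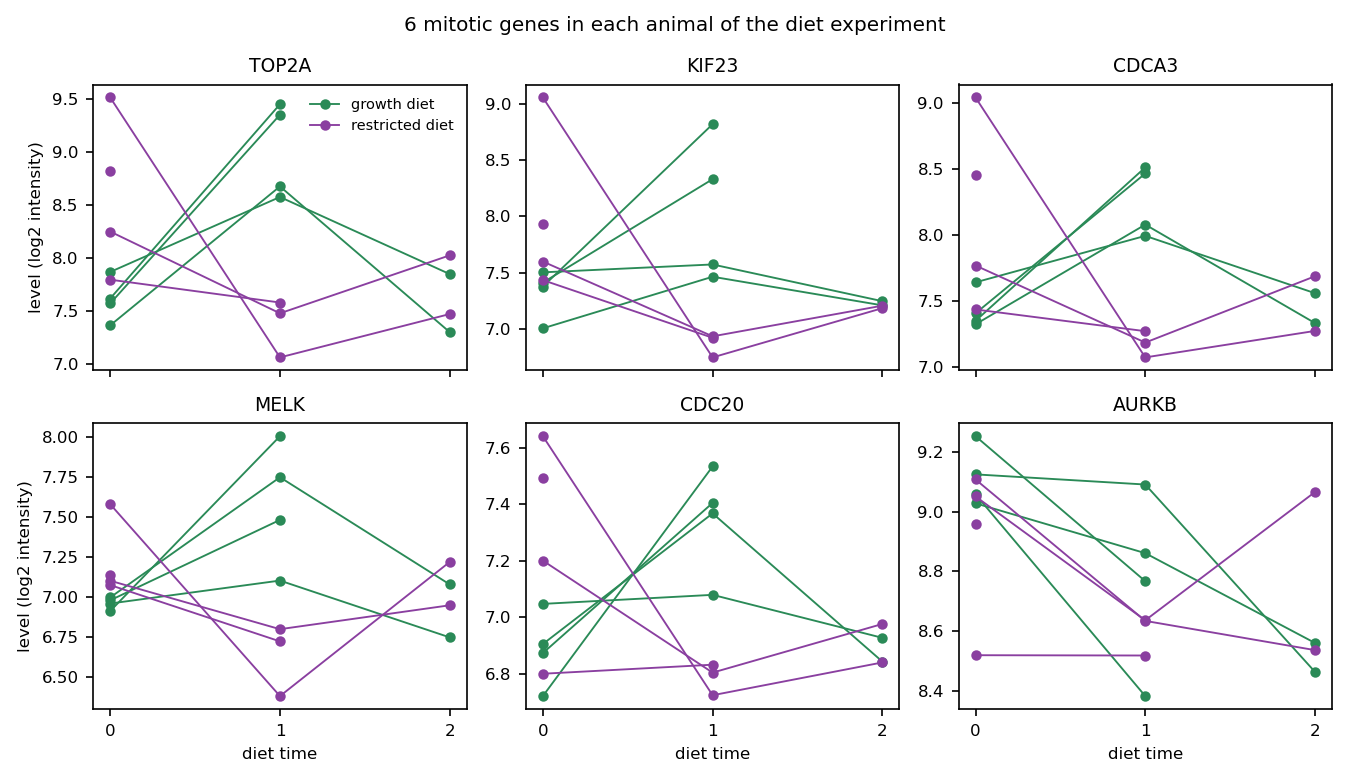
Log2 level of TOP2A, KIF23, CDCA3, MELK, CDC20 and AURKB in each diet animal at times 0, 1 and 2, with lines joining the samples of an animal. In TOP2A, KIF23, CDCA3 and MELK every growth animal goes up and every restricted animal goes down from time 0 to time 1. In CDC20 1 restricted animal does not go down (6.80, then 6.83), and AURKB shows no such crossing.

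At time 2 no probe of the array passed by limma, mitotic genes included (0% of 14869), with 0 of 30 mitotic genes and 1.5% of all probes at an unadjusted p under 0.05. With 2 animals of each diet the test had little reach: the 95% intervals of the 30 differences lay between -1.12 and 1.27. TOP2A was at 7.47 and 8.03 in the restricted animals and at 7.30 and 7.85 in the growth animals, and the diets overlapped. The mean level over the 30 genes was 7.42 and 7.58 against 7.43 and 7.50, and 46.7% and 46.1% of gene and channel pairs were above background.

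The diet difference at time 1 came with large differences in other genes. All 5 myofibre genes were lower in restricted animals, ACTA1 with a log2 difference of -6.05 ± 0.26, and the list mean was 15.27 to 15.47 against 17.47 to 18.29. Of 4 fibroblast genes COL1A1 (-4.34 ± 1.07) and COL3A1 (-4.52 ± 0.59) were lower, with a list mean of 10.09 to 10.99 against 12.66 to 13.65, and 3 of 4 endothelial genes were lower (10.14 to 10.32 against 10.67 to 11.25). Of the myoblast and satellite cell genes 1 of 3 tested, MYF5, was lower, with list means of 10.17 to 10.32 in restricted and 9.61 to 10.32 in growth animals, and 0 of 4 leukocyte and 0 of 3 adipocyte genes passed. The part of these shifts in the mitotic result was not tested. Among the neighbours of the mitotic genes, FOXM1 (-0.51 ± 0.14) and E2F2 (-0.95 ± 0.26) were lower and MYBL2 and E2F1 did not pass, 5 of 9 other spindle and cytokinesis genes were lower, and 1 of 14 other kinetochore genes was lower and 1 higher.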

How the data were processed

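RNA of longissimus muscle was measured on 48 arrays with 96 channels. The authors labelled and hybridised the RNA, scanned the arrays and deposited, per spot and channel, the raw mean intensity and the median intensity of the local background from Agilent Feature Extraction (9.5.1 per the labels, 9.5.3.1 per the file headers). The deposited log10 ratios of Cy5 over Cy3, normalized within arrays by the same program, served only as an alternative. The authors' mixed-model values per condition were not used here. Condition, animal and dye of each channel came from the labels.

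Background correction was by normexp (offset 50), control and outlier spots were left out of the log2 values, and arrays were normalized by loess within and Aquantile between arrays (limma 3.58.1, R 4.3.3). Channels of 1 animal at 1 time were averaged, and the share of Cy5 channels was a term of the fit. Tested were 14869 probes with a value in every channel and detection well above background in 24 channels or more. limma was fitted to 64 developmental samples in 20 conditions and to 19 diet samples in 6, with the animal as a random block (correlation 0.271 and 0.142), two-sided, at an adjusted p of 0.05. An array number often carries the same animals at several ages after birth or diet times, so leaving out a replicate can remove the same animals at both ends of a comparison. The 2 samples on 1 array are paired only by that array.

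"At least" folds compare the bright group's mean with, per channel, the higher of the dim value and the weakest probe well above background. They are limits of detection and include no sampling error. Errors are SEs from the fit. Array number limits the precision. The members and all gene lists were chosen with earlier results of these data known. The genes named were every member, by role, and in each comparison the 3 largest rises and falls, every member that passed against the majority and every member that passed in a cross or diet comparison. Alternatives were background subtraction, median-centred channels, quantile normalization, other probe filters, leaving out each replicate, no animal block, the array as a replicate block, the slide as a block, the birth and fetal arrays alone, 2 animal codes merged, the mean of a gene's probes and, both chosen after seeing the data, 1 poorly correlating channel left out and the deposited log ratios. The fits were tested on simulated data. No genome build is given for the probes in the sources used here, so no coordinates are printed. A search for promoter motifs was planned and not run. Figures were drawn with matplotlib 3.10.9 in Python 3.11.15.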

Additional observations from a re-analysis of the deposited data

Results flagged for a closer look

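Of 132 groups of samples in which the mean of the tested genes or a named gene was examined, 17 held 1 sample standing far from the others by Dixon's test, which chance gives in about 5 percent of groups. Most lay in 2 samples. At 25 months the Wagyu-cross sample of replicate 3 was high in the mean of the 30 tested genes (8.27), in TOP2A (9.40), CDCA3 (9.54), CCNB1 (7.84), CDC20 (8.38) and UBE2C (8.77). At 7 months the Piedmontese-cross sample of replicate 3 was high in CCNB1 (7.29), CDC20 (7.755) and UBE2C (8.22).

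The others were single values. CCNB1 was high in the Piedmontese-cross sample of replicate 2 at 20 months (7.41) and in the Wagyu-cross sample of replicate 1 at 30 months (7.07). CDCA3 was high at 195 days in the Piedmontese-cross fetus of replicate 2 (11.496). PLK1 was low in the Wagyu-cross sample of replicate 3 at 30 months (9.66) and in the restricted animal of replicate 2 at diet time 0 (10.05). On array 3 of diet time 0 the growth animal was high in KIF2C (10.78) and TPX2 (7.99) and the restricted animal was high in TPX2 (7.86).

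The diet difference changed between time 0 and time 1 in 22 of the 30 tested genes by limma's test of the change itself, and this count was 2 without replicate 1.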

How the results depend on the processing

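Counts are of the 30 tested genes that passed, by limma, and percentages are shares of all probes called. From 60 to 135 days 24 passed (14.9%), against 6 with plain background subtraction (13.9%), 10 with median-centred channels (3.93%) and 21 to 22 without 1 replicate. From 135 to 195 days 22 passed (22.7%), against 8 (22.5%), 1 (2.81%) and 13 to 23, with 13 without replicate 1 (13.2%). From 195 days to birth 27 to 28 passed without 1 replicate, and from 60 days to birth 29. From birth to 3 months 21 passed (49.2%), against 7 with centring (13.8%) and 17 to 21 without 1 replicate. From 3 to 20 months 6 passed (27.2%), against 0 with centring (0.915%), 3 without the animal block (19.1%) and 1 to 5 without 1 replicate (18.4% to 24.8%). From 25 to 30 months 18 passed (20.1%), against 11 to 19 without 1 replicate, with 11 without replicate 3 (16%), and centring gave 3 higher and 22 lower (65.9%) while moving the median of all probes to 0.54. Between the crosses 1 passed at birth with quantile normalization (1.58%) and 1 with the array as replicate block (9.64%), and 1 after birth with the deposited log ratios (1.23%), chosen after seeing the data. At diet time 0 1 passed without the animal block (3.81%), 2 with the array as replicate block (5.84%) and 6 with the deposited log ratios (6.65%). At diet time 1 22 passed (18.7%), against 14 with quantile normalization (16.5%) and 9 to 17 without 1 replicate (6.45% to 13.2%). The change of the diet difference was called in 22 genes (11%), and in 2 to 16 without 1 replicate (0.437% to 7.78%). Without 1 replicate 0 passed in any cross comparison or at diet times 0 and 2. Signs turned for AURKB from 60 days to birth (-0.001 with background subtraction, -0.26 with centring, -0.28 to 0.16 without 1 replicate), for AURKB from 195 days to birth (-0.018 to 0.30), for the change of its diet difference (-0.033 to 0.196), for KIF2C from 195 days to birth (-0.019 with centring) and at diet time 1 (-0.027 to 0.156, and -0.013 with the array as replicate block), for TPX2 from 60 to 135 days (0 to 0.141), for AURKA from 3 to 20 months (-0.01 to 0.085) and between the crosses at birth (-0.41 to 0.049), for ANLN in the change of the cross difference (0.02 with centring) and for PBK between the crosses before birth (0.013 with centring). The cause was not tested for these. Over all comparisons and settings 177 counts, some of them listed above, stayed within 1.5 times the count given. These include the cross and diet comparisons in which a count of 0 stayed 0, which says little about stability. Dim probes near the level of empty ones limit what can be said at birth and later.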
